A study of Mus musculus with 2 samples.

Results

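Transcripts of 46 genes that carry glucose to pyruvate, lactate and the citrate cycle were measured in embryonic mouse heart. The genes were chosen by name along the pathway and located by gene identifier in the deposited gene and transcript tables, where all 46 of them were found among 43346 Ensembl genes. They divide into 23 genes of glycolysis and lactate handling and 23 genes of pyruvate entry into mitochondria and the citrate cycle. The study sequenced total RNA from heart of B6NCrl mouse embryos, a C57BL/6N substrain, at embryonic day 13.5. The libraries form 1 group with no treatment and no allele named, and they are 2 biological replicates (replicates 1 and 2). Each replicate is tissue pooled from male and female embryos. The labels list the tissue samples as distinct, with a donor entry in common. With 1 group there is no contrast to test, so levels are given per library and as mean ± SD (n = 2).

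Glycolysis splits glucose into pyruvate in the cytosol and yields ATP without oxygen. Pyruvate is either reduced to lactate by lactate dehydrogenase, or carried into mitochondria, turned into acetyl-CoA by the pyruvate dehydrogenase complex and oxidised in the citrate cycle. The fetal heart is known to draw largely on glucose and lactate, whereas the adult heart mostly oxidises fatty acids. Many steps have isoenzymes, sister proteins from separate genes that catalyse the same reaction and differ between fetal and adult or between muscle and other tissues.

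The libraries held 36733400 and 36060765 expected counts, the estimated numbers of reads per gene. Added spike-in RNA took 5.96% of the counts in replicate 1 and 2.56% in replicate 2. All 8 cardiomyocyte markers, among them Actc1 and Tnnt2 of the contractile apparatus, reached 1 TPM (a transcript level corrected for length and library size) in both libraries, and they summed to 28925 and 34862 TPM. Reads of markers of other cells were found too. The 8 erythroid markers summed to 71029 and 46101 TPM, 10 hepatocyte markers to 96.9 and 507 TPM, 5 endothelial markers to 337 and 344 TPM, 4 macrophage markers to 141 and 157 TPM, 7 skeletal muscle markers to 5.94 and 9.83 TPM and 3 brain markers to 1.00 and 0.920 TPM. None of these markers was at 0 in both libraries. However, only 7 of 10 hepatocyte, 2 of 7 skeletal muscle and 0 of 3 brain markers reached 1 TPM in both. All erythroid, endothelial and macrophage markers did.

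All 46 genes reached 1 TPM in both libraries, as did 57.3% of all protein-coding genes. At least 100 TPM in both was reached by 35 of them (5.43% of protein-coding genes) and at least 1000 TPM by 7 of them (0.377%). The 46 genes took 2.12% of all TPM in replicate 1 and 2.48% in replicate 2. Glycolysis and lactate genes accounted for 1.60% ± 0.18, and pyruvate entry and citrate cycle genes for 0.702% ± 0.073. The median of the genes' mean levels was 238 TPM in the glycolytic branch and 184 TPM in the other, which includes the cytosolic Mdh1. Levels ran from 11.0 TPM for Slc2a3 to 3499 TPM for Gapdh. In bulk tissue, fewer cells of a type and less RNA per cell cannot be told apart.

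**Figure D1:**
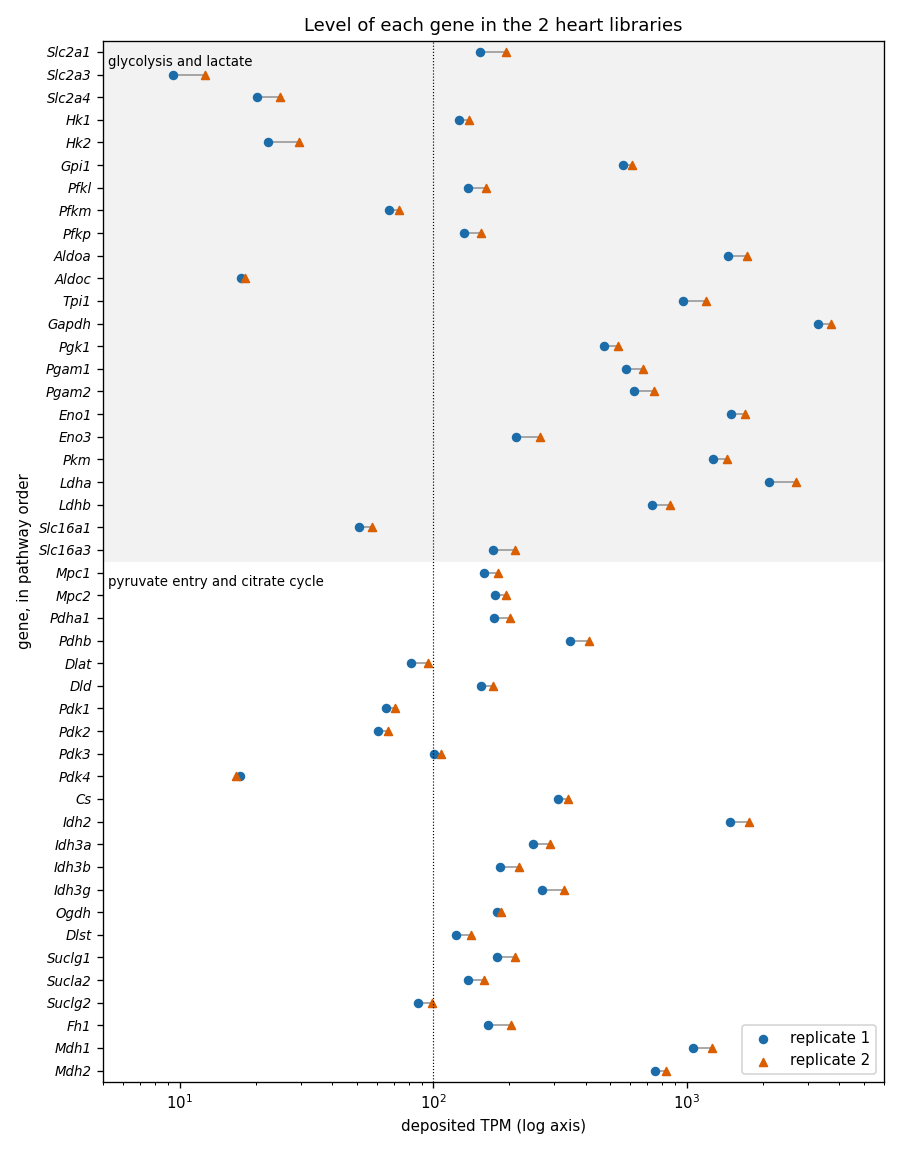
TPM of the 46 genes on a log axis, in pathway order from top to bottom, with a circle for replicate 1 and a triangle for replicate 2, and a dotted line at 100 TPM. The glucose transporters, hexokinases and phosphofructokinases lie below 200 TPM, and the later glycolytic steps and lactate dehydrogenase hold 5 of the 7 genes above 1000 TPM in both libraries.

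Glucose enters through the facilitative transporters of the Slc2a family. Slc2a1 encodes GLUT1, the transporter typical of fetal tissue, and had 153 TPM in replicate 1 and 194 in replicate 2. Slc2a4 encodes GLUT4, the insulin-responsive transporter of adult heart and muscle, and was measured at 20.1 and 24.8 TPM. Slc2a3, encoding the high-affinity transporter GLUT3, was measured at 9.42 and 12.6 TPM. Replicate 2 was the higher library for each of these transporters, and their ranges did not overlap. Slc2a1 held 83.8% of the summed TPM of the 3 genes in each library. Its level was 7.62 and 7.82 times that of Slc2a4, and the deposited credibility intervals of the estimates did not overlap in either library. Slc2a2, the GLUT2 gene of liver and pancreatic islets, was at 0.120 and 0.630 TPM.

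Hexokinases trap glucose by phosphorylation. Hk1, the broadly expressed isoenzyme, was measured at 127 and 139 TPM. Hk2, the isoenzyme prominent in adult heart and skeletal muscle, was measured at 22.4 and 29.7 TPM. Hk1 made up 83.7% ± 1.8 of the pair. A short processed transcript of 594 nt, Hk2-202, held 56.6% ± 0.94 of the TPM of Hk2 but only 10.4% and 10.9% of its counts. Over transcripts typed protein-coding, the level of Hk2 was 11.3 TPM and the excess of Hk1 over Hk2 was 11.8-fold, against 5.15-fold over all transcripts. Both Hk1 transcripts with an appreciable share were protein-coding, Hk1-202 with 65.9% ± 3.9 and Hk1-201 with 32.5% ± 3.3 of the gene. Hk3, a further gene of this family, was at 0.790 and 0.730 TPM.

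Gpi1, whose enzyme converts glucose 6-phosphate to fructose 6-phosphate, was measured at 559 and 607 TPM. Phosphofructokinase makes the committed step of glycolysis and is built from liver-, muscle- and platelet-type subunits. No subunit reached 50% of the family. Pfkl (137 and 161 TPM) and Pfkp (132 and 154 TPM) held 41.2% ± 0.42 and 39.4% ± 0.24, and their credibility intervals were not apart in both libraries. The muscle-type Pfkm, at 66.7 and 73.4 TPM, held 19.4% ± 0.66 and lay below Pfkl by 2.12-fold. Over protein-coding transcripts, which held 73.6% of the TPM of Pfkp, Pfkl exceeded Pfkp by 1.40-fold. The summed level of the step was 362 ± 37 TPM, against 159 ± 14 TPM for the hexokinases and 207 ± 35 TPM for the glucose transporters.

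From aldolase to lactate dehydrogenase, each step except that of Pgk1 exceeded, in mean level, every step from glucose entry to phosphofructokinase. Aldoa, the muscle-type aldolase, was measured at 1454 and 1736 TPM and held 98.9% ± 0.11 of the family. Aldoc, known from brain, was at 17.5 and 18.1 TPM. Tpi1, which interconverts the triose phosphates, was at 969 and 1188 TPM. Of the steps that were summed or rest on a single gene, 8 of 21 reached 1000 TPM in both libraries: aldolase, glyceraldehyde phosphate dehydrogenase, phosphoglycerate mutase, enolase, pyruvate kinase, lactate dehydrogenase, NADP isocitrate dehydrogenase and cytosolic malate dehydrogenase. Over protein-coding transcripts 7 did, as cytosolic malate dehydrogenase (Mdh1) then had 911 TPM in replicate 1. With TPM rescaled without spike-ins 9 did.

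Gapdh, whose enzyme reduces NAD while it phosphorylates the triose, had the highest TPM of the 46 genes at 3296 and 3702. That rank rested on Gapdh-208, a processed transcript of 483 nt that is not typed protein-coding. It held 59.4% and 57.2% of the TPM of the gene but 30.0% and 28.1% of its counts. Over protein-coding transcripts Gapdh was at 1436 ± 175 TPM and ranked the fifth, after Ldha at 2390 ± 406 TPM and after Aldoa, Eno1 and Idh2. The ratio of Gapdh to Pgk1, the next enzyme and the first to yield ATP, was 6.93-fold over all transcripts and 2.85-fold over protein-coding ones. Pgk1 itself was at 473 and 537 TPM.

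**Figure D2:**
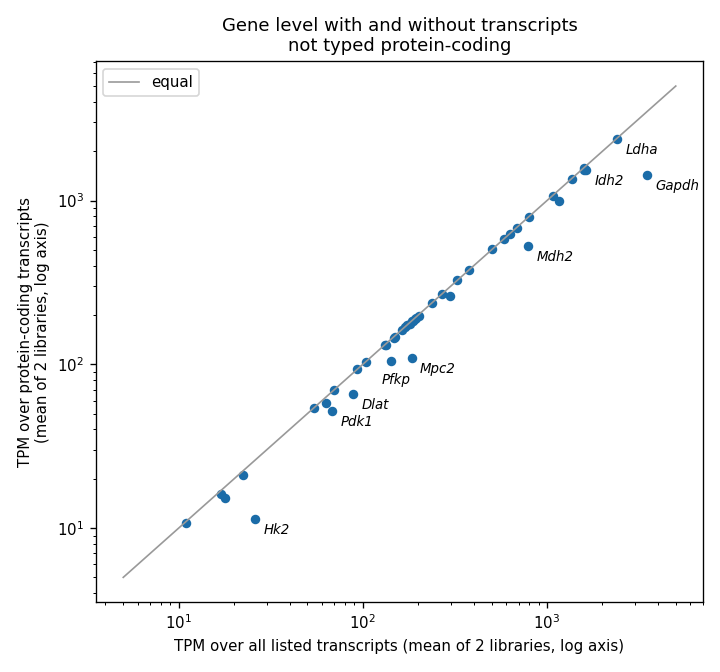
Mean TPM of each gene over all listed transcripts (horizontal, log axis) against mean TPM over transcripts typed protein-coding (vertical, log axis), with 1 point per gene and a line of equality. Most genes lie on the line, and Gapdh and Hk2 lie farthest below it with 41.1% and 43.3% of their TPM in protein-coding transcripts.

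In 36 of the 46 genes, protein-coding transcripts held over 90% of the TPM, as in 67.0% of protein-coding genes at 1 TPM. The share was at or under 50% in Gapdh and Hk2, as in 8.01% of protein-coding genes. Fh1 and Mdh1 show that typing alone does not set short transcripts apart. Fh1-205, of 542 nt and typed protein-coding, held 32.6% ± 3.9 of the TPM of Fh1 but 6.98% and 8.77% of its counts, and Mdh1-202, of 549 nt, held 28.7% ± 0.14 of the TPM of Mdh1 but 9.54% and 9.40% of its counts.

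The phosphoglycerate mutases move the phosphate within the molecule, and both were at similar levels. Pgam2, the muscle-type mutase, was measured at 622 and 744 TPM, and Pgam1, the type of brain and most other tissues, at 579 and 675 TPM. Pgam2 held 52.1% ± 0.43 of the pair by TPM, with credibility intervals apart in both libraries. Per read the order was the other way round, with 31.8% ± 0.37 of the expected counts from Pgam2, whose transcript is 840 nt long against 1831 nt for Pgam1. Levels of different genes are therefore compared per length throughout. Eno1, the widely expressed enolase, was at 1493 and 1699 TPM and held 87.1% ± 0.70 of its pair with the muscle enolase Eno3, at 212 and 263 TPM. The neuronal enolase Eno2 was at 3.57 and 3.96 TPM.

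Pyruvate kinase makes pyruvate and ATP in the last step of glycolysis. Its gene Pkm (ENSMUSG00000032294.12, chromosome 9, 59656368 to 59679375 on the plus strand of GRCm38) was measured at 1267 and 1450 TPM from 86612 expected counts in replicate 1. Pkm yields PKM1 or PKM2 by including 1 of 2 mutually exclusive exons. PKM1 is the form of adult heart, skeletal muscle and brain, and PKM2 the form of most embryonic and dividing tissue, whose activity can be regulated by fructose 1,6-bisphosphate. Pklr, the pyruvate kinase gene of liver and red cells, was at 0.750 and 4.33 TPM.

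The pair of exons is shown because the share of each isoform rests on them. Each is 167 nt long and exon 9 of 11 in its transcript, and 372 nt lie between them. They are identical at 103 positions (61.7%) and differ at 64, which stand in capitals below. The sequences were read 5′ to 3′ from the GENCODE M21 transcripts on GRCm38, plus strand, and Pkm-202 carries the upstream exon at chr9:59675029-59675195 and Pkm-201 the downstream exon at chr9:59675568-59675734.
Pkm-202 (M1 type): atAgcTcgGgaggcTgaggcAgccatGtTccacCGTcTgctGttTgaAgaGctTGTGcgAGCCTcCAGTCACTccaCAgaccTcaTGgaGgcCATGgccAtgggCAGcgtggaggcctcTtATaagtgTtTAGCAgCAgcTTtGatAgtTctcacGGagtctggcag
Pkm-201 (M2 type): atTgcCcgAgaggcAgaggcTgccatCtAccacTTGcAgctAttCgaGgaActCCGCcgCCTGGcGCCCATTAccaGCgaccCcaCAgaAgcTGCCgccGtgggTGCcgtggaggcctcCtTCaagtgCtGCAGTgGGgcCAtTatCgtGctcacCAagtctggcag

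Pkm-202, with the M1 exon, had 797 and 943 TPM, from 54442 and 60303 counts. Pkm-201, with the M2 exon, had 471 and 507 TPM, from 32170 and 32396 counts. The M1 transcript held 62.9% and 65.0% of Pkm TPM (64.0% ± 1.5), and the M2 transcript 37.1% and 35.0%, so the M1 form was the larger in both libraries by far more than the spread between them. The deposited tables list both transcripts at 2432 nt, so the shares by counts, 62.9% and 65.1% for Pkm-202, were nearly those by TPM. Both transcripts share 8 inner exons, and reads from shared exons were divided by the quantification model. How many reads covered the exons that differ is not given in the tables. In the annotation used for names, Pkm-202 is 2041 nt long, so its model differs from that of the files in length.

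**Figure D3:**
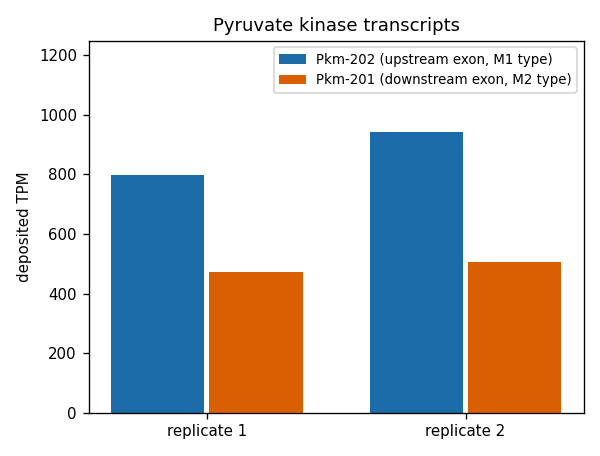
Bars give deposited TPM of Pkm-202 (M1 exon) and Pkm-201 (M2 exon) in replicates 1 and 2, on an axis that starts at 0. Pkm-202, at 797 and 943 TPM, lies above Pkm-201, at 471 and 507 TPM, in both libraries.

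Lactate dehydrogenase is a tetramer of subunits from Ldha, known as the muscle type, and Ldhb, the type that prevails in adult heart. Ldha (ENSMUSG00000063229.10, chromosome 7, 46841475 to 46855627 on the plus strand) was measured at 2114 and 2694 TPM and Ldhb at 729 and 860 TPM. Ldha held 75.1% ± 1.0 of the pair and exceeded Ldhb by 2.90-fold in replicate 1 and 3.13-fold in replicate 2. Transcripts typed protein-coding gave nearly the same ratios, 2.88-fold and 3.11-fold. The testis subunit gene Ldhc had no read in either library, and Ldhd, for D-lactate, was at 0.350 and 0.530 TPM. Together Ldha and Ldhb reached 3199 ± 502 TPM, the widest SD of the summed steps.

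Lactate crosses the cell membrane with a proton through monocarboxylate transporters. Slc16a3, encoding the exporter MCT4, was at 173 and 211 TPM, and Slc16a1, encoding MCT1, at 50.8 and 57.6 TPM. Slc16a3 held 77.9% ± 0.82 of the pair by TPM and 62.4% by counts. Slc16a7, a further transporter of this family, was at 2.37 and 2.49 TPM. Bsg, encoding the chaperone basigin that brings MCT1 and MCT4 to the membrane, was at 849 and 993 TPM.

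**Figure D4:**
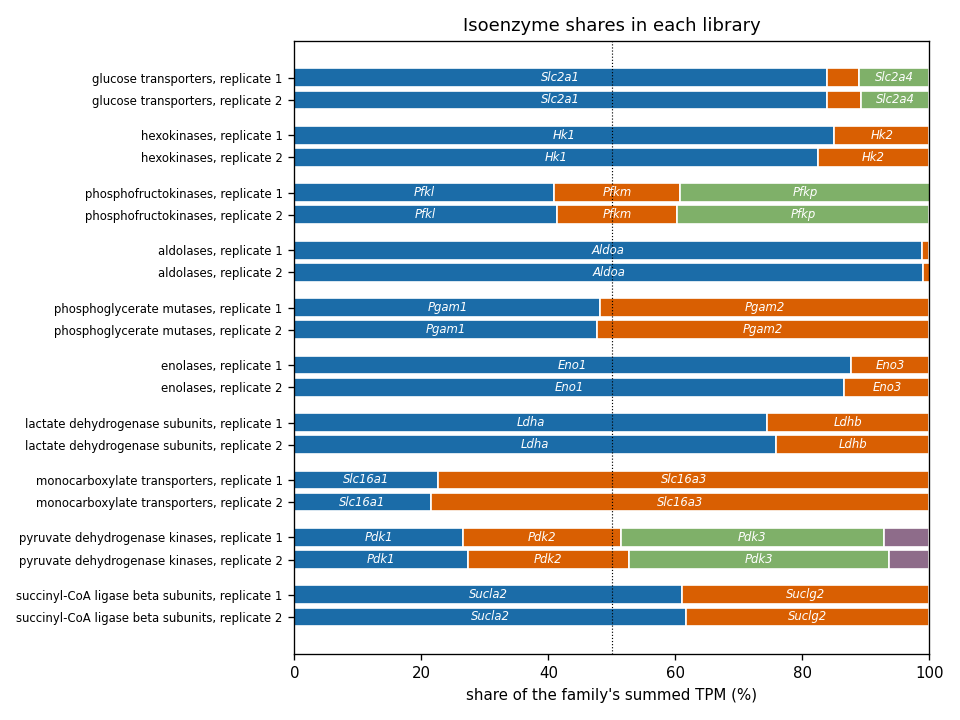
Share in percent of each isoenzyme in the summed TPM of its family, 1 bar per family and library, on an axis from 0 to 100. Segments too narrow for a label are Slc2a3 in the glucose transporters, Aldoc in the aldolases and Pdk4 in the pyruvate dehydrogenase kinases, and only the phosphofructokinase and kinase bars have no segment over 50%.

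A leading isoenzyme was called where 1 gene held over 50% of its family in both libraries and its credibility intervals lay above those of all others. By that rule 8 of 10 families had a leader. They were Slc2a1, Hk1, Aldoa, Pgam2, Eno1, Ldha, Slc16a3 and Sucla2, and the families without a leader were phosphofructokinase and pyruvate dehydrogenase kinase. The call of Pgam2 carries the limit given above for the copy Pgam1-ps2. The deposited interval surrounds the posterior mean and can lie beside the deposited TPM itself.

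Pyruvate enters mitochondria through a carrier of Mpc1 and Mpc2. Mpc1 was at 159 and 181 TPM and Mpc2 at 175 and 193 TPM, and their credibility intervals were not apart in both libraries. Mpc2-203, a processed transcript of 493 nt, held 40.0% ± 1.1 of Mpc2, and over protein-coding transcripts the ratio of Mpc2 to Mpc1 turned from 1.08 to 0.649. The subunits of the pyruvate dehydrogenase complex were unequal. The E1 beta gene Pdhb was at 347 and 411 TPM and its partner, the X-linked E1 alpha gene Pdha1, at 174 and 201 TPM, a ratio of 2.02-fold. Among the 4 genes of the complex within the 46, the E2 core gene Dlat was lowest at 82.1 and 95.1 TPM. Pdhx, of the same complex but not among the 46, was lower at 39.1 and 45.8 TPM. It was named after its values were seen. Dld, the E3 subunit shared with the oxoglutarate dehydrogenase complex, was at 154 and 173 TPM.

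Pyruvate dehydrogenase kinases switch the complex off by phosphorylating E1 alpha. Pdk3, at 101 and 107 TPM, held 41.2% ± 0.38 of the family. Pdk1, which is known to be induced in hypoxia, was at 64.9 and 71.0 TPM, and Pdk2 was at 60.5 and 66.3 TPM. Pdk4, the isoenzyme known to rise in adult heart with fatty acid use and fasting, was lowest at 17.3 and 16.7 TPM, and Pdk3 exceeded it by 6.10-fold. By counts the order of the first pair was turned, with 43.2% from Pdk1 and 30.3% from Pdk3. Pdk1 transcripts are long, with 5185 nt for the leading Pdk1-201. All 4 kinases summed to 252 ± 12 TPM.

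Citrate synthase, which joins acetyl-CoA to oxaloacetate, was represented by Cs at 310.4 and 339 TPM. Idh2 (ENSMUSG00000030541.12, chromosome 7, 80094846 to 80115392 on the minus strand), the mitochondrial NADP-dependent isocitrate dehydrogenase, stood out from its neighbours at 1487 and 1765 TPM. It exceeded Cs by 4.79-fold and 5.21-fold in the libraries and Idh3a, the catalytic subunit of the NAD-dependent enzyme, by 6.05-fold, and its transcript Idh2-201 alone held 94.0% ± 0.22. The 3 subunits of the NAD-dependent enzyme differed by at most 1.48-fold in mean ratio, with Idh3g at 268 and 328 TPM, Idh3a at 248 and 289 TPM and Idh3b at 184 and 218 TPM.

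The members of the later steps lay below Idh2. Ogdh and Dlst, the E1 and E2 subunits of the oxoglutarate dehydrogenase complex, were at 178 and 185 TPM and at 123 and 141 TPM. Suclg1, the alpha subunit common to both succinyl-CoA ligases, was at 179 and 210.2 TPM. Of the beta subunits, Sucla2 for the ATP-forming enzyme was at 137 and 159 TPM and Suclg2 for the GTP-forming enzyme at 87.2 and 98.8 TPM, so that Sucla2 held 61.4% ± 0.41. Both beta subunits summed to 241 ± 24 TPM, beside 194 ± 22 TPM for the alpha subunit, whose partner they are in turn.

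Succinate dehydrogenase, which also serves as complex II of the respiratory chain, was higher than its neighbours in the cycle. Its genes were not among the 46 and had mean levels of 677 ± 69.6 TPM for Sdhb, 466 ± 59.6 TPM for Sdhd, 377 ± 34 TPM for Sdhc and 369 ± 52 TPM for Sdha. Fh1, for fumarase, was at 165 and 203 TPM. Mdh1 and Mdh2 encode the cytosolic and mitochondrial malate dehydrogenases, which work together in the malate-aspartate shuttle, and were at 1061 and 1259 TPM and at 748 and 827 TPM. Mdh1 exceeded Mdh2 by 1.47-fold over all transcripts. Mdh2-203, typed as a target of nonsense-mediated decay, held 32.1% ± 0.035 of Mdh2, and over protein-coding transcripts the ratio was 1.88-fold. That ratio leaves out Mdh2-203 but keeps the short Mdh1-202, which held 28.7% of the TPM of Mdh1 but 9.54% and 9.40% of its counts. The leading transcripts lay closer together, with Mdh1-201 at 605 and 727 TPM and Mdh2-201 at 501 and 556 TPM. The 1.88-fold ratio therefore rests in part on Mdh1-202.

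Of 63 further genes of these pathways, 45 were at 1 TPM or more in each library (57.3% of protein-coding genes). At 100 TPM or more were 11 (5.43%). Below 1 TPM in both were 15 genes, among them Slc2a2, Hk3, Ldhc and Ldhd, and 5 of these had no read, which leaves room for up to 3 reads in each library.

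Of the 46 genes, 37 had at least 2 listed transcripts. The same transcript held over 50% of the TPM in both libraries in 34 of them, against 71.5% of protein-coding genes with at least 2 listed transcripts and 1 TPM. It held over 80% in 21 (34.7%). No transcript passed 50% in both libraries for Pfkm, Pfkp and Slc16a3. Pfkm was divided between Pfkm-201 and Pfkm-202 at 51.5% ± 2.1 and 48.5% ± 2.1. The leading transcript was not protein-coding for Gapdh and Hk2, as for 5.11% of protein-coding genes with such a leader.

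Reads that match more than 1 gene have to be divided between them. In 17 of the 46 genes, the leading protein-coding transcript shared at least 1 window of 50 nt with transcripts of another gene, against 30.4% of protein-coding genes at 1 TPM. Some of these stretches were short and shared with many other genes, as in Pfkl and Pdk4. Over 10% of windows were shared in 12 of the 46 (11.2% of protein-coding genes) and over 50% in 3 (3.86%). The largest shares were 82.5% for Gapdh, 72.2% for Eno1 and 68.0% for Pgk1. Copies with a level of their own, named after their values were seen, included Eno1b at 5.99 and 7.43 TPM, Pgk1-rs7 at 69.7 and 110.4 TPM, Pgam1-ps2 at 66.5 and 60.9 TPM and Mpc1-ps at 56.8 and 70.3 TPM. Expected counts that were not whole, a sign of divided reads, occurred in both libraries for 14 of the 46 genes, against 23.2% of protein-coding genes at 1 TPM. Of these 14, 10 were glycolysis or lactate genes. Shared windows and counts that were not whole did not always go together. Slc2a1, Hk1 and Pfkp were among the 14 but shared no window. Pfkl, Aldoa, Tpi1, Cs and Pdk4 shared windows but had whole counts in both libraries. The count of Pkm was not whole in replicate 2 alone, and 39.3% of the windows of Pkm-202 were shared. Levels of Gapdh, Eno1, Pgk1, Pgam1 and Mpc1 are uncertain to the extent that reads were assigned to the wrong copy, which was not tested.

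Promoter sequences from RefSeq on GRCm38.p6, 250 bases before to 50 bases after a gene's start, were found for 43 of the 46 genes. A gene can have more than 1 start, and there were 62 sequences in all. They were searched on both strands for ACGTG, which reads CACGT on the other strand. These letters form the core of sites bound by hypoxia-inducible factors, known regulators of many glycolytic genes, and also occur within the E-box CACGTG. They were present in 13 of 21 glycolysis and lactate genes (61.9%) and in 6 of 22 pyruvate entry and citrate cycle genes (27.3%). In Hk1, Aldoc and Gapdh they lay only next to the start or after it. Among protein-coding genes at 1 TPM in both libraries the share was 29.5%. Counted by window rather than by gene, the shares were 46.9% of 32 windows, 36.7% of 30 windows and 25.3% of 12432 windows, against 19.6% of all 32851 windows. GC content was 60.4% and 60.3% in the branches and 60.8% in expressed genes. The longer motif CACGTG was present in 3 glycolytic genes (14.3%) and 2 citrate cycle genes (9.09%), against 11.8% of expressed genes. A match is a description of the letters and not of a bound site.

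Of the 10 glycolysis and lactate genes with a match and its surroundings ahead of a start, 8 are printed as examples. The start is a RefSeq one and need not be the first of the gene. The stretches of Aldoa, Pkm, Ldha and Slc16a3 lie within the GENCODE span of their gene, and that of Slc2a1 in part. Slc16a1 and Pfkm, whose matches include CACGTG, are left out. So are the matches of the 6 pyruvate entry and citrate cycle genes. The match printed for Ldha also lies within CACGTG. Capitals mark the searched letters, and each stretch is given 5′ to 3′ on the strand of its gene, with coordinates on GRCm38.p6.
Slc2a1, chr4:119108699-119108723, plus strand: cccgccccggACGTGctccccaggc
Hk2, chr6:82774492-82774516, minus strand: tgagcacatcCACGTcactgtccgg
Aldoa, chr7:126799366-126799390, minus strand: tggctcgagtCACGTcctagcgggg
Pgk1, chrX:106186940-106186964, plus strand: gtcgtgcaggACGTGacaaatggaa
Pgam1, chr19:41911747-41911771, plus strand: ctccttgcttACGTGcgctccgtga
Pkm, chr9:59657142-59657166, plus strand: ccgatccggtCACGTccgcgccgca
Ldha, chr7:46845747-46845771, plus strand: cccagcctacACGTGggttcccgca
Slc16a3, chr11:120949030-120949054, plus strand: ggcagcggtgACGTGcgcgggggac

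The scaled replicates differed little in these genes. The log2 ratio of replicate 2 to replicate 1, of TMM-scaled counts with 0.5 added, had a median of 0.068 over the 46 genes and of -0.003 over 13766 genes with a mean count of at least 50. It ran from -0.10 for Ogdh to 0.27 for Slc2a3. None of the 46 genes differed by 0.32 (log2) or more in either direction, a size passed by 4.93% of all genes upward and 5.78% downward. The set of all genes was not matched for count level. Among the 46, the lowest counts were 789 and 818, for Aldoc. Replicate 2 was the higher library in 38 of the 46, against 49.2% of all genes. At 1.1-fold, a size chosen after the values were seen, 7 of the 46 lay higher in replicate 2 (16.2% of all genes) and 0 lower (20.0%). These 7 were Slc2a3 at 1.21-fold, Hk2 at 1.17-fold, Ldha and Slc2a1 at 1.15-fold, Slc2a4 at 1.14-fold, Eno3 at 1.12-fold and Tpi1 at 1.11-fold. With 1 library on each side there is no test.

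**Figure D5:**
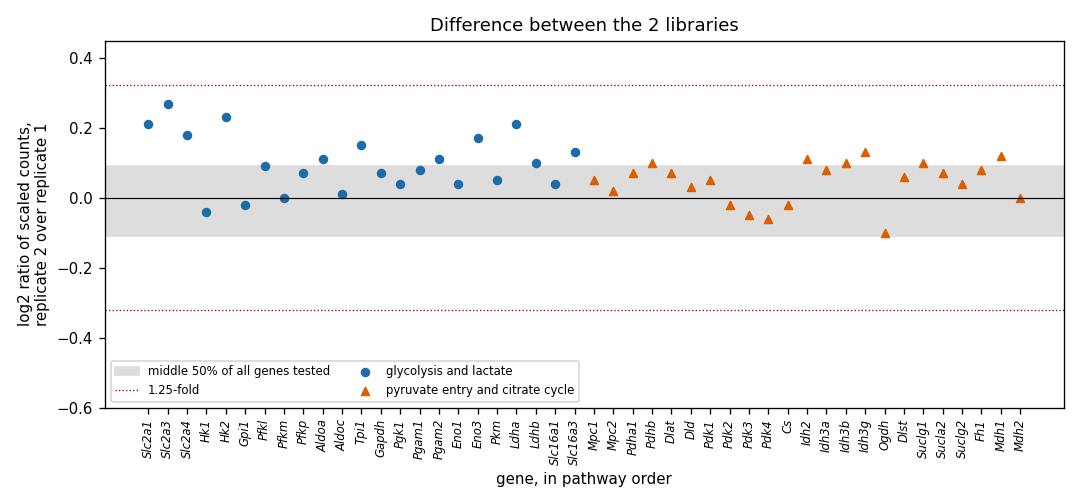
Log2 ratio of replicate 2 to replicate 1 of TMM-scaled counts for each of the 46 genes in pathway order, with a grey band for the middle 50% of all 13766 genes and dotted lines at 0.32 in both directions. All points lie between the dotted lines, from -0.10 for Ogdh to 0.27 for Slc2a3, and 38 lie above 0.

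Cell type markers moved between the libraries as well. Of the cardiomyocyte markers, 6 of 8 lay higher in replicate 2, and their median log2 ratio was 0.12. All 9 hepatocyte markers with enough reads were higher, with a median of 2.54, and 6 of 8 erythroid markers were lower, with a median of -0.76. All 4 skeletal muscle markers with enough reads were higher, with a median of 0.65. Endothelial markers had a median of -0.11 and macrophage markers of -0.29. Pklr had a log2 ratio of 2.38, and Bpgm, the red cell mutase that makes 2,3-bisphosphoglycerate and was named after its values were seen, was at 84.9 and 55.4 TPM. The part of cell composition in the ratios of the 46 genes was not tested. Deposited TPM was higher in replicate 2 for 45 of the 46 genes, Pdk4 excepted. The median log2 ratio was 0.21, against 0.14 for all genes, so most genes tested were higher on this scale too. Their share was not counted. The SDs of TPM given above include this shift. The spike-in share, 11.1% of TPM in replicate 1 and 5.04% in replicate 2, moved in the opposite direction.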

How the data were processed

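Expected counts, TPM, posterior means, credibility bounds and transcript shares were deposited for each library on mm10 with GENCODE annotation M4, per the labels and file headers. The deposited expected count is an estimated number of reads, not normalized, per the file headers. Deposited TPM is scaled over all listed features, spike-ins included, so a larger spike-in share lowers every other TPM. The deposited credibility bounds were read as a signal on the TPM scale, and their level is not stated in the headers. The deposited percent column is each transcript's share of its gene's TPM, per the file headers. Per the labels' protocols, RNA was extracted by the mirVana method from 10 ng input, a size range above 200 nt and added spike-ins. Aligner and quantifier: not given in the sources used here.

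Names came from GENCODE M21 on GRCm38, matched without version: 42462 of 43346 genes and all 245 transcripts of the 46 genes matched. Transcript types and the Pkm exons are those of M21. Counts were rounded, and spike-ins and other features that name no gene (96 and 26248 entries) were left out of scaling. The ratio used TMM factors from edgeR 4.0.16 in R 4.3.3, and size factors of DESeq2 1.42.0 served as an alternative. No p-value was computed. Tables and plots were made in Python 3.11.15 with pandas 2.3.3, numpy 2.4.6 and matplotlib 3.10.9. A count was called whole within 0.01. The ratio calculation was tested on simulated data.

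The genes and lists were chosen with earlier results of these data known. By rule, all 46 genes could be named, and of the further pathway genes the 6 with the highest mean TPM and those beside an isoenzyme family. Some genes that the rule names are left out of the text. Alternatives covered TPM and count minimums, posterior means, removal of spike-ins, scaling, pseudocount and leaving out either library. Summation over protein-coding transcripts and the 1.1-fold size were added after values were seen. Nothing in the labels names separate litters, so the spread is that between these samples.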

Additional observations from a re-analysis of the deposited data

How the results depend on the processing

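With both libraries kept, 198 values of single genes, steps and shares were recomputed. Of these, 150 stayed within 1 SD of the reported value, 47 moved further and 1 called leader was reversed, Pgam2 with 31.8% of its pair by counts. Counts also put Pdk1 (43.2%) above Pdk3 (30.3%), in a family where no leader was called. Most shifts came from summing protein-coding transcripts (21 values) and from rescaling TPM without spike-ins (16 values). Rescaling raises every TPM of a library by the same factor. The values it moved past 1 SD are therefore those with a small SD for their level, not those more dependent on processing. With a leader required to hold over 80%, 4 families had one. The median replicate ratio was 1.36 (log2) when libraries were scaled by spike-in counts, where the median of all genes was 1.29 and 46 genes lay at least 0.32 (log2) higher in replicate 2. By deposited TPM, 4 genes did. For these scalings the share of all genes past 0.32 was not counted. With TMM-scaled counts, 7 genes lay at least 1.1-fold higher. The difference between the 46 genes and all genes was 0.07 to 0.08 in each of these scalings. With 2 libraries, leaving out either cannot move a mean by more than 1 SD, and it moved no count by over 1.5 times. The ratio needs both libraries and was not run without either. No paired analysis was possible because there is 1 group. At this depth, genes with 0 reads cannot be called absent.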
